A study of Homo sapiens with 2 samples.

Results

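CDK1, the mitotic cyclins and the enzymes that switch the CDK1 complex on and off were followed as messenger RNA. The cultured cells, labelled as pancreatic cancer cells, were given vehicle or a compound labelled as an inhibitor of mitochondrial glutamine transport. The 10 genes were CDK1, CCNA2, CCNB1, CCNB2, CDC25A, CDC25B, CDC25C, WEE1, PLK1 and TOP2A. They were taken by symbol from the 46427 gene rows of the deposited table. Each symbol matched 1 row, and all 10 genes had at least 50 counts in a library, the minimum that 14805 of the 46427 genes reached. The genes were chosen by their role in mitotic entry with the ratios of these 2 libraries already known, so the counts, FPKM and TPM compared below took part in the choice. Their differences are therefore described without a test.

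The study held 2 libraries of total RNA. One came from cells labelled MiaPaca2 (MIA PaCa-2, an established line of human pancreatic cancer) given vehicle, and the other from cells of the same label given iMQT_020. Both were treated for 48 hours, and the dose is not given in the sources used here. Marker values given at the end of the Results go against the label of the line. With 1 library per treatment, the treatment and any other difference between the 2 cultures or library preparations cannot be told apart. Intervals below cover counting error only.

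CDK1 is the kinase that drives cells into mitosis. It is inactive alone and works when bound to cyclin A2 or to a B-type cyclin. WEE1 and its relative PKMYT1 hold the bound kinase off by phosphorylation, the CDC25 phosphatases remove those phosphates, and PLK1 favours the active state by promoting CDC25 activity and WEE1 destruction. TOP2A, DNA topoisomerase II alpha, untangles sister chromatids. Most of these genes are transcribed mainly late in the cell cycle, while CDC25A is an E2F target transcribed earlier.

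Late cell cycle promoters are known for a cell cycle genes homology region, called CHR, bound by the MuvB core of the DREAM and MYB-MuvB complexes, and for CCAAT boxes bound by NF-Y. The promoters of the members were read for these letters because the messenger RNAs of the members differed in opposite directions. RefSeq sequence on GRCh38.p14, from 250 bases before to 50 bases after the start, was found for 9 of the 10 members, all but WEE1; the start nearest that of the canonical GENCODE transcript was used. The lines below run 5′ to 3′ on the strand of the gene. Capitals mark 3 things on either strand: a CHR, spelled TTTGAA in one form and TTCGAA in the other, its variant CTTGAA, and the CCAAT box. On the reverse strand the box reads ATTGG and the variant reads TTCAAG. The 4 longer pieces are the 120 bases before the start, and the pieces of CDK1 and PLK1 are 30 bases around a match.
TOP2A, chr17:40417897-40418016, minus strand: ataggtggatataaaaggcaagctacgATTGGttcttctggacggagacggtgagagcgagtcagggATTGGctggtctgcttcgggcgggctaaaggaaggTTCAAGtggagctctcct
CDK1, chr10:60778453-60778482, plus strand: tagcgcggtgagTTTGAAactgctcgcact
CCNA2, chr4:121823884-121824003, minus strand: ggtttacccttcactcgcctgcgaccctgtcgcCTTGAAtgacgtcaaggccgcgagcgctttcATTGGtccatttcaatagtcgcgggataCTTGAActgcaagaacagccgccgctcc
CCNB1, chr5:69167030-69167149, plus strand: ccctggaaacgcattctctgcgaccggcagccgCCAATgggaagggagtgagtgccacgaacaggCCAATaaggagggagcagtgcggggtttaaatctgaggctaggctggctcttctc
CCNB2, chr15:59105026-59105145, plus strand: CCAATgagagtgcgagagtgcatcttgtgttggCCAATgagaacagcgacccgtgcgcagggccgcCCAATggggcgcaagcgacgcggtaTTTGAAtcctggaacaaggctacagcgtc
PLK1, chr16:23678848-23678877, plus strand: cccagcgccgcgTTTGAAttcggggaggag

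All 9 promoters held a CCAAT box, and 7 held a CHR or its variant together with a CCAAT box. Among 35116 promoters of the same length, 34.6% held a CCAAT box, 24.9% a CHR or its variant, and 9.65% both. A CHR in its usual letters was present in 6 of the 9 and in 16.4% of all promoters. The variant, which was added after the sequences were seen, occurred in CCNA2 and TOP2A and in 11.2% of all promoters. The match closest to the start, among those before it, began 28 bases upstream in CCNA2, 29 in CCNB2 and in PLK1, 30 in CDC25C, 38 in CDC25B, 18 in TOP2A and 13 in CDK1. CCNB1 and CDC25A held none of these letters. E2F letters (TTGGCGC in one form, TTCCCGC in another, then TTGCCGC, and lastly TTCGCGC, either strand) were found in CDK1, CCNB1 and CDC25A and in 13.0% of all promoters. The pair in CDC25A overlaps itself. Among the 16536 promoters of measured genes, 34.8% held a CCAAT box, 11.8% a CHR, 7.49% the variant and 18.9% E2F letters. CDK1 and TOP2A, lower in the iMQT_020 library, and CCNB2 and PLK1, higher in it, each held a CHR and a CCAAT box. They shared the presence of these letters and not their places. In TOP2A the CHR in its usual letters began 194 and 151 bases upstream, and the match at 18 was the variant. E2F letters were in CDK1 but not in TOP2A, CCNB2 or PLK1. Whether the letters bear on the differences was not tested.

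**Figure D1:**
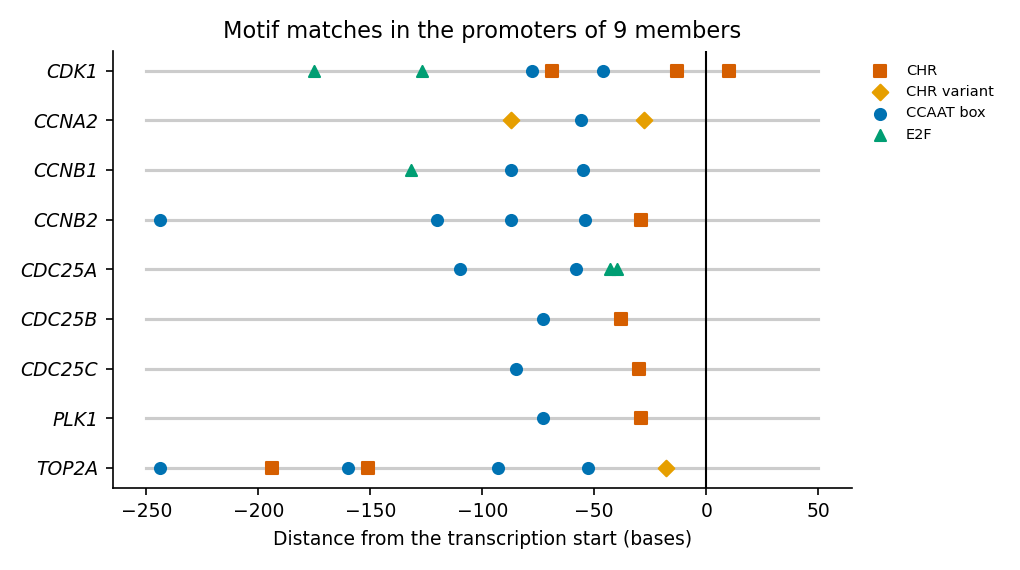
Motif matches in the promoters of 9 members, by the first base of each match (x axis, bases from the transcription start, negative upstream). Squares are CHR, diamonds the variant, circles CCAAT boxes and triangles E2F letters; all 9 rows carry a circle, and 7 carry a square or a diamond.

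CDK1 and TOP2A were more than 2-fold lower in the iMQT_020 library, while the 3 mitotic cyclins and PLK1 were higher there by less than 2-fold. WEE1 and CDC25C were lower by less than 2-fold, CDC25B was slightly higher and CDC25A was level. By count, 2 of 10 members were at least 2-fold lower and 0 were at least 2-fold higher. The background over all 14805 measured genes was 5.23% at least 2-fold apart, 3.09% lower and 2.15% higher. Every member had over 1000 counts in both libraries. Among the 9312 genes that reached 1000 counts in either library, 1.28% were at least 2-fold apart, 0.956% lower and 0.322% higher. Since the contrast took part in choosing the genes, nothing is read from these shares. The median log2 ratio of the members, iMQT_020 over vehicle, was 0.10, with 5 above and 5 below 0, beside −0.02 and 47.3% above 0 over all measured genes. In bulk RNA, fewer cells in a phase of the cycle and less RNA per cell cannot be told apart.

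The gene for the kinase itself, CDK1, lies on chromosome 10 from 60778331 to 60794852. It had 12341 counts with vehicle and 4851 with iMQT_020, or 218 and 100.2 deposited TPM (transcripts of the gene per fixed total of transcripts, a level per length). The vehicle library was the high one, and the counting intervals of the levels did not overlap (214 to 222 TPM and 97.4 to 103 TPM). On counts scaled by TMM the log2 ratio was −1.17 (95% exact interval −1.22 to −1.12), a 2.25-fold lower level. Of the measured genes, 1.93% had a lower log2 ratio, and of those that reached 1000 counts 0.494%. From vehicle to iMQT_020, CDK1 went from the third most abundant of the 10 members per length to the seventh, where its counting interval overlapped that of CDC25B.

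The cyclins, which bind CDK1 and direct it to its substrates, differed the other way. CCNB1, the main mitotic cyclin, lies on chromosome 5 from 69167150 to 69178245 and had 16704 counts (vehicle) and 22969 (iMQT_020), or 276 and 443 TPM. It was the most abundant member per length in both libraries, with a log2 ratio of 0.64 (0.61 to 0.66), 1.55-fold higher in the iMQT_020 library. Among genes that reached 1000 counts, 98.3% had a lower log2 ratio than CCNB1.

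CCNB2, a second B-type cyclin, on chromosome 15 from 59105146 to 59125045, had 4971 and 6547 counts, or 112 and 172 TPM. Its log2 ratio was 0.57 (0.52 to 0.63), 1.49-fold higher. CCNB1 exceeded CCNB2 by nearly the same factor in both libraries, 2.46 in vehicle and 2.57 in iMQT_020, as a ratio of TPM. CCNA2, the cyclin of S phase and early mitosis, on chromosome 4 from 121816444 to 121823883, had 12279 and 12775 counts, or 150 and 182 TPM. Its log2 ratio was 0.23 (0.20 to 0.27), the smallest of the 3 cyclins. EXOSC9 overlaps CCNA2 over 578 bases and had a log2 ratio of −0.30, so reads in the shared part cannot be assigned with certainty.

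Set against CDK1, the cyclin messages made up a larger part in the iMQT_020 library. The ratio of CCNB1 to CDK1 in TPM was 1.27 with vehicle and 4.42 with iMQT_020, a 3.49-fold difference. The 3 cyclins together summed to 538 TPM and 798 TPM, which is 2.47 and 7.96 times the level of CDK1. These are ratios of messenger RNA within a library, and protein was not measured.

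**Figure D2:**
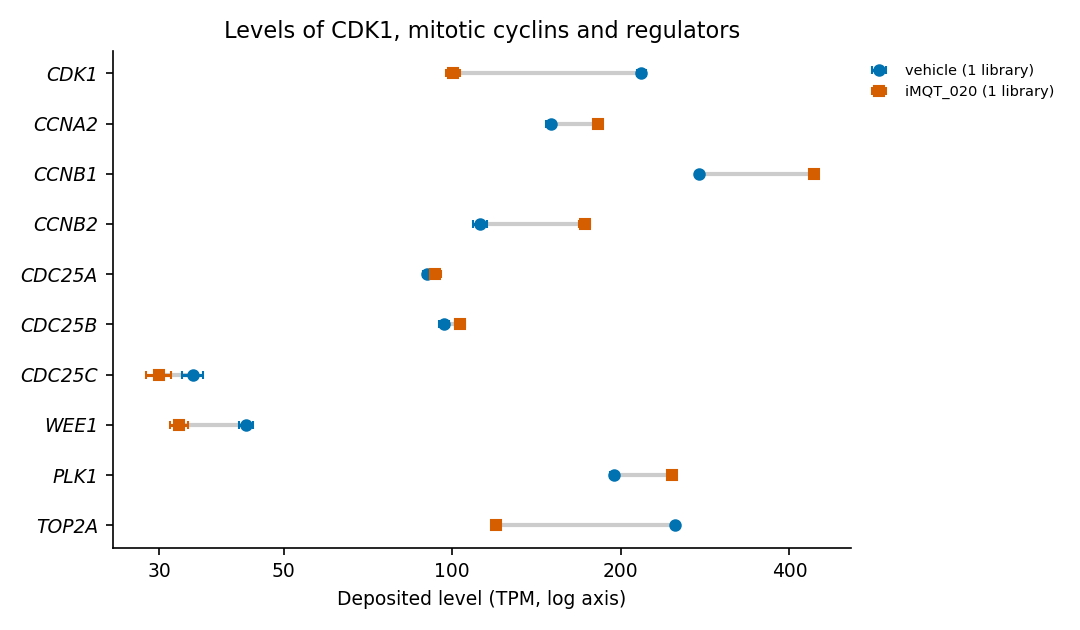
Deposited level of each member (x axis, TPM on a log axis) in the vehicle library (circles) and the iMQT_020 library (squares), with exact 95% intervals for counting error and a bar joining the 2 libraries. CDK1 was at 218 TPM with vehicle and 100.2 with iMQT_020 and TOP2A at 250 and 119.9, while CCNB1 was at 276 and 443.

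The phosphatases that activate CDK1 showed small differences of mixed direction. CDC25A, which also acts at the entry to S phase, had 10081 and 8914 counts, 90.3 and 93.3 TPM and a log2 ratio of −0.00 (−0.04 to 0.04), an interval that includes 0. CDC25B, thought of as the starter of mitotic entry, had 8994 and 9168 counts and 96.7 and 103 TPM. Its log2 ratio was 0.20 (0.16 to 0.25) from counts but 0.05 from deposited FPKM (fragments per length and depth). The length implied by its count and FPKM was 1.12 times as long in the iMQT_020 library. The cause of this was not tested, as no values per transcript were used here. For the other 9 members the implied lengths differed by at most 1.62%, and their count and FPKM ratios were nearly equal.

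CDC25C was the least abundant member per length in both libraries, though with iMQT_020 its counting interval overlapped that of WEE1. It had 2066 and 1522 counts, 34.4 and 29.9 TPM and a log2 ratio of −0.26 (−0.36 to −0.17). Its RefSeq span overlaps FAM53C over 799 bases on chromosome 5, all upstream of the canonical GENCODE start of CDC25C at 138331804. FAM53C had 7095 and 8727 counts and a log2 ratio of 0.47, the opposite sign, and without a stated strand setting reads in the shared bases cannot be told apart. Summed, the 3 CDC25 genes stood at 221 TPM (vehicle) and 226 TPM (iMQT_020), although their separate ratios differed in sign. In every member the log2 ratio from deposited TPM was above that from FPKM, for CDC25A 0.05 against 0.00. The small rise of the sum is therefore not read as a difference.

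WEE1, the kinase that phosphorylates and restrains CDK1, lies on chromosome 11 from 9573670 to 9589985. It had 4536 and 2888 counts, or 42.9 and 32.5 TPM, the vehicle library being the high one. The log2 ratio was −0.48 (−0.54 to −0.41), 1.39-fold lower in the iMQT_020 library. PKMYT1, the membrane-bound kinase with the same role, was at 69.4 and 36.4 TPM with a log2 ratio of −0.98 (−1.05 to −0.90), just within 2-fold. Its canonical transcript has 67.3% GC, and centred on genes of like GC content and length it was at −0.67. The 3 phosphatases together stood at 1.97 times the 2 inhibitory kinases with vehicle and 3.29 times with iMQT_020, by TPM. Against WEE1 alone they stood at 5.17 times with vehicle and 6.97 times with iMQT_020. Messages for CDK1 and for both of its inhibitory kinases were lower, and those of the 3 cyclins were higher.

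PLK1, the Polo kinase of mitotic entry and spindle assembly, lies on chromosome 16 from 23678889 to 23690367. Its 12525 and 13607 counts, or 195 and 247 TPM, gave a log2 ratio of 0.30 (0.26 to 0.33). ERN2 overlaps it by 58 bases and had only 28 and 13 counts. Per length, PLK1 was 0.894 times CDK1 with vehicle and 2.46 times CDK1 with iMQT_020.

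TOP2A, which acts on the chromosomes and not on the kinase, was the other member with a large difference. It lies on chromosome 17 from 40388525 to 40417896 and had 42357 counts (vehicle), the most of the 10 there, and 17414 (iMQT_020), or 250 and 119.9 TPM. The log2 ratio was −1.11 (−1.13 to −1.08), 2.15-fold lower in the iMQT_020 library. TOP2B, the isoform that is expressed also in resting cells, was at 133 and 129.7 TPM with a log2 ratio of −0.07. Per length, TOP2A was 1.87 times TOP2B with vehicle and 0.925 times with iMQT_020.

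**Figure D3:**
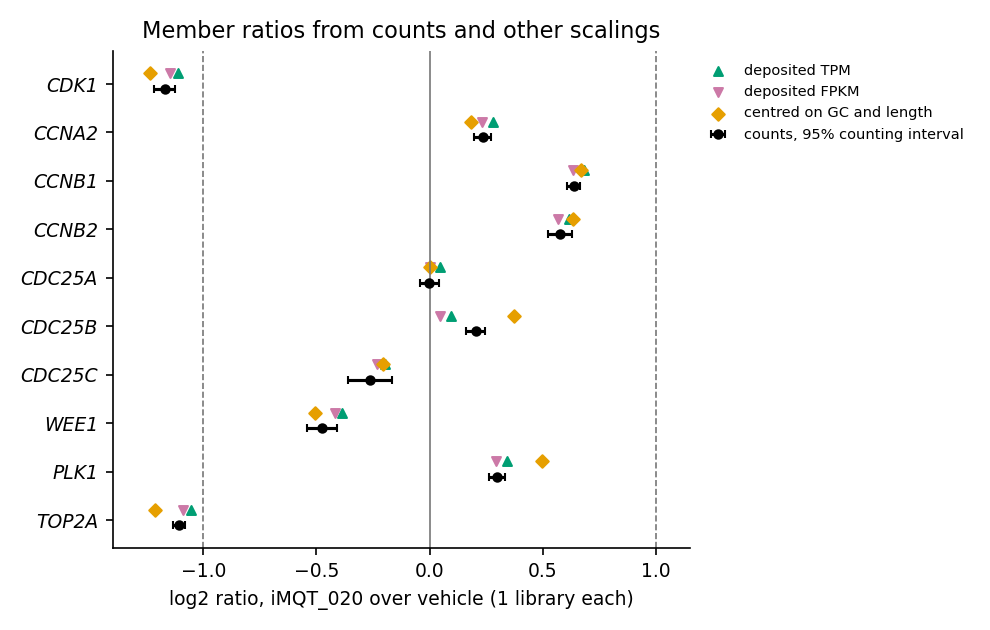
log2 ratio of each member, iMQT_020 over vehicle (x axis), from counts (black, with exact 95% counting intervals), deposited TPM and FPKM on log2(value + 1), and counts centred on GC content and transcript length. CDK1 and TOP2A lie beyond the dashed 2-fold line at −1 in all 4, and CDC25B is the member whose values spread most, from 0.05 to 0.37.

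The ratio of a gene in these libraries moved with its GC content and length: over 13853 measured genes in 10 bins of GC, the median was 0.13 on the log2 scale in the bin lowest in GC and −0.31 in the highest. CDK1 has a canonical transcript of 35.4% GC and TOP2A one of 38.9% GC, both low, where similar genes had median log2 ratios of 0.07 and 0.10. Centred on such genes, CDK1 was at −1.24 and TOP2A at −1.21, so both differences were as large within their GC and length bins. PLK1, at 57.1% GC, moved from 0.30 to 0.50 on centring, and CDC25B, at 59.1% GC, from 0.20 to 0.37. CCNB1 and CCNB2 stayed close, at 0.67 and 0.63. RefSeq places no other gene over CDK1, TOP2A, CCNB2 or CDC25B.

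**Figure D4:**
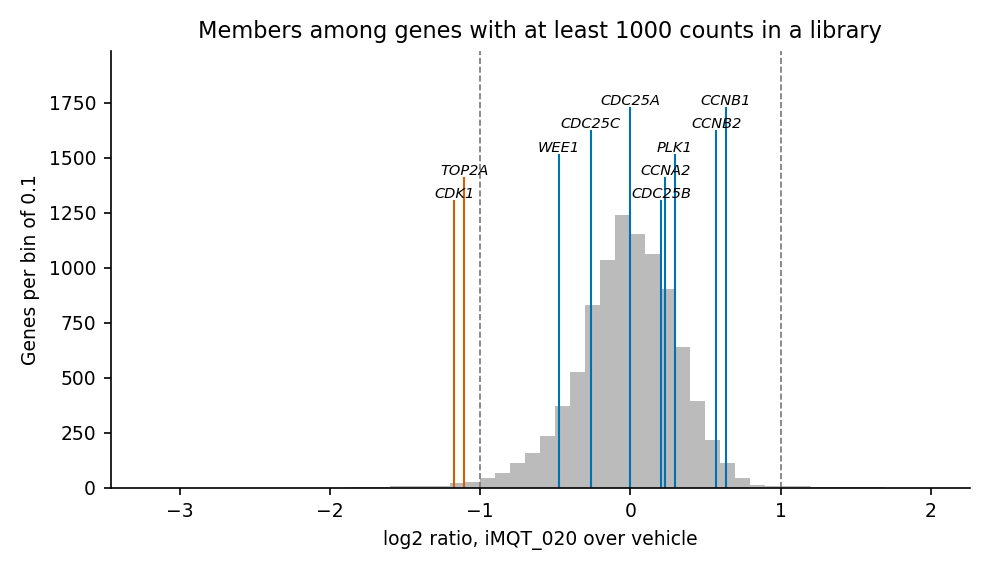
Number of genes (y axis) by log2 ratio, iMQT_020 over vehicle, in bins of 0.1 for the 9312 genes that reached 1000 counts in either library, with the 10 members as lines and 2-fold as dashed lines. Of these genes the central 95% lay between −0.76 and 0.59, CDK1 and TOP2A lay below that range, and CCNB1 lay above it.

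Around the members, 7 lists of 78 genes gave 75 measured genes, with a median log2 ratio of 0.09. Of these, 3 were at least 2-fold lower, 0 at least 2-fold higher, 44 above 0 and 31 below 0. Over all measured genes, 3.09% were at least 2-fold lower, 2.15% at least 2-fold higher and 47.3% above 0, with a median of −0.02. These shares are the background for each list below too. The lists were chosen with earlier results known, so nothing is read from their counts. The 3 list genes past 2-fold were UBE2C, FZR1 and PLK3. UBE2C, the E2 enzyme that hands ubiquitin to the anaphase-promoting complex, was at 332 and 139 TPM with a log2 ratio of −1.31 (−1.37 to −1.24). FZR1, the coactivator that targets cyclins and PLK1 for destruction in late mitosis and G1, was at 30.2 and 14.7 TPM with −1.05 (−1.13 to −0.98). It was within 2-fold with deposited TPM (−0.99) and FPKM (−0.97) and after centring (−0.86). PLK3, a stress-responsive Polo kinase, had only 167 and 64 counts and a log2 ratio of −1.20 (−1.65 to −0.78), and was at −0.66 with deposited TPM and −0.44 with FPKM. CDC20, the coactivator of earlier mitosis, was at 194 and 284 TPM with 0.50. The list of ubiquitin ligases that act on the members, 9 genes, had 6 above 0 and a median of 0.22.

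Small partners of the kinase went apart. CKS1B and CKS2 encode closely related subunits that bind CDK complexes; CKS1B was at 190 and 135 TPM with a log2 ratio of −0.55 (−0.62 to −0.48), and CKS2 at 421 and 632 TPM with 0.54 (0.49 to 0.58). CCNB3, a B-type cyclin mainly of germ cells, had 219 and 326 counts and a log2 ratio of 0.75. CDK2, the related kinase of S phase, stood at 134 TPM with vehicle and 100.6 TPM with iMQT_020, and in the latter library CDK1 was 0.996 times CDK2. Of the 8 measured genes of this list, 4 were above 0, 0 were 2-fold apart and the median was 0.04.

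Of the 13 measured inhibitory and checkpoint regulators, 6 were above 0 and 0 were 2-fold apart, with a median of −0.01. Besides PKMYT1 the largest ratios were those of CHEK2, a DNA damage checkpoint kinase, at −0.53, and GADD45A, a stress-induced inhibitor, at −0.36. Among 11 Polo and Aurora kinases and partners, 7 were above 0 and the median was 0.17. AURKB and INCENP, the kinase and the scaffold of the chromosomal passenger complex, were at −0.55 and −0.50. The other subunits of that complex, named after their values were seen, were at 0.31 (BIRC5) and −0.10 (CDCA8), so the subunits did not share a direction. Greatwall kinase and PP2A-B55, which oppose each other over CDK1 substrates, gave 6 of 8 above 0, a median of 0.13 and no gene 2-fold apart. Their largest ratios were ARPP19, the Greatwall substrate that inhibits PP2A-B55, at 0.37, PPP2CB at 0.33 and PPP2R2A at 0.27.

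Topoisomerases and condensins, which shape chromosomes beside TOP2A, had 8 of 12 above 0 and a median of 0.06, and 0 were 2-fold apart. Centred on GC content and length, the median of this list was −0.06, the opposite sign. KIF4A, a chromosome kinesin, was at 0.76 (0.71 to 0.81), SMC4, a condensin subunit, at 0.46 and TOP1 at 0.44. The list for transcription of late cell cycle genes held 14 genes, activators and repressors together. Its median was −0.03, with 7 above 0 and 0 at least 2-fold apart, and the centred median was 0.02. FOXM1, a transcription factor that activates many of the members, was at 95.6 and 142 TPM with 0.53 (0.49 to 0.56). LIN54, the MuvB subunit that contacts the CHR, was at 0.48, and RBL1, a pocket protein of the repressive DREAM complex, at −0.62 (−0.70 to −0.54).

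**Figure D5:**
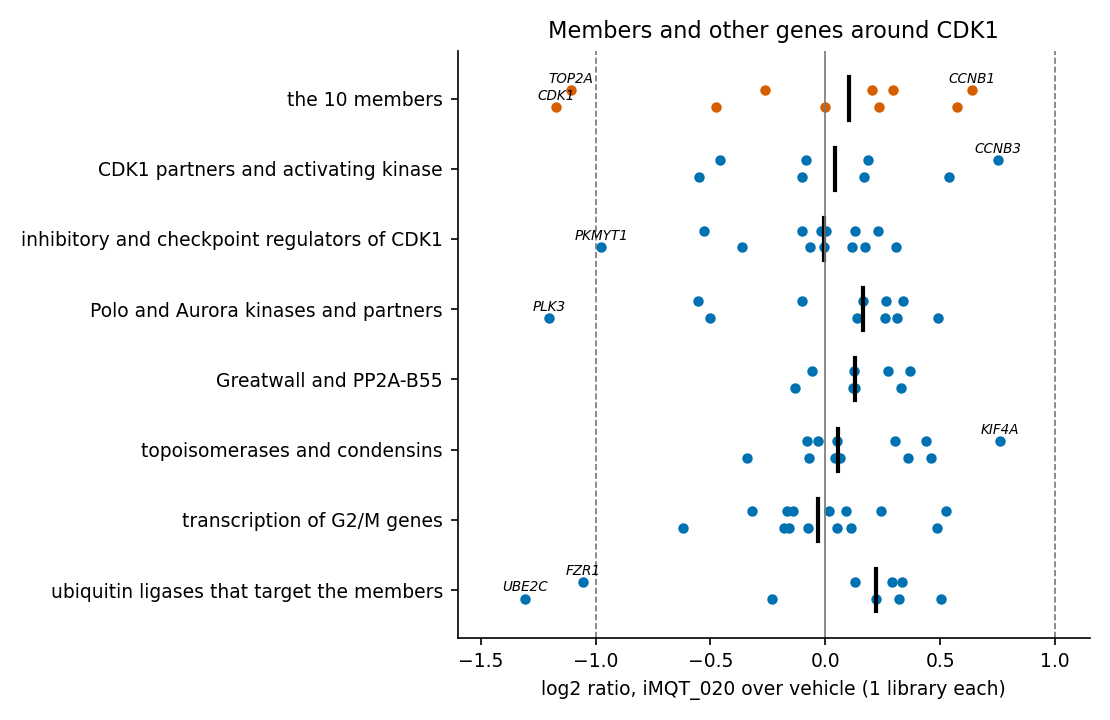
log2 ratio, iMQT_020 over vehicle (x axis), of the 10 members and of the measured genes of 7 other lists, 1 point per gene, with the median of each list as a black line and 2-fold as dashed lines. Beyond −1 lie CDK1, TOP2A, UBE2C, FZR1 and PLK3, and no point lies beyond 1.

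Estimated counts summed to 67095283 with vehicle and 59139157 with iMQT_020. Markers were read to check the label of the cells. VIM was at 403 and 438 TPM and KRT8 at 128 and 92.3 TPM, while KRT7 and KRT19 had 0 counts in both libraries, below a floor of 3 counts (0.0448 and 0.0506 CPM). CDKN2A is deleted in MIA PaCa-2, yet stood at 278 and 208 TPM here, and CD44 had 16 and 3 counts. The other 9p21 genes read, MTAP and CDKN2B, were at 33.7 and 26.2 TPM and at 8.04 and 13.5 TPM. The values go against the label of the line, which is used only as a label. Among the markers of fibroblasts, leukocytes and endothelium, COL1A1 was the most abundant, at 16.5 and 11.1 TPM; PTPRC, CD3E, COL1A2 and DCN had 0 counts in both libraries, and VWF was at 0.0522 and 0.0696 TPM. Their part in the differences of the members was not tested.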

How the data were processed

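TRIzol RNA was sequenced and mapped with Bowtie2 through HISAT2 on GRCh38, per the labels' protocols. Per the submitters' processing notes, StringTie and edgeR were also used, with no role or version given. The strand setting, read length and counting step are unknown here. The authors deposited whole-number estimated counts for each gene, FPKM scaled by the authors to length and depth, and TPM scaled by the authors to 1 total per library. A second deposited table held FPKM of 20787 genes, equal to the first within 0.0001 for 100%. Columns were assigned by name, with 0 columns of sample values unassigned.

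Counts were scaled by TMM (edgeR 4.0.16, R 4.3.3; factors 0.998 and 1.00). The log2 ratio of CPM used a prior count of 0.5, genes needed 50 counts in a library, and called means at least 2-fold apart. No p-value was computed, as each group had 1 library, and replicates could not be compared. Intervals are exact Clopper-Pearson (ratio) or Poisson (level) 95% intervals that treat estimated counts as reads and cover counting error only. GC content and length came from canonical GENCODE 44 transcripts, for 93.6% of measured genes, in 10 by 10 bins. Python 3.11.15, numpy 2.4.6, pandas 2.3.3, scipy 1.17.1 and matplotlib 3.10.9 were used, and the ratio and interval calculation was tested on simulated data. The simulated counts held counting error only, so that check does not bear on variation between cultures or library preparations. Gene positions came from RefSeq on GRCh38.p14.

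The members and lists were chosen with earlier results of these data known. Named were all members, in each other list every gene at least 2-fold apart and, where these were fewer than 3, the 3 genes with the largest absolute ratio, measured genes overlapping a member, and the most abundant gene of each marker list, of which 1 is not reported here; TOP2B, CDK2, BIRC5, CDCA8, ERN2, BBS7, CENPB and further marker genes were chosen as counterparts or neighbours after their values were seen. Alternatives were median of ratios (DESeq2 1.42.0), total counts and upper quartile scaling, a prior count of 5, deposited TPM and FPKM on log2(value + 1), centring on GC content and length, minimum counts of 200 or none, a 1.5-fold rule and protein-coding genes; a minimum of 1000 counts and the CHR variant were added after the data were seen.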

Additional observations from a re-analysis of the deposited data

How the results depend on the processing

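CDK1 and TOP2A were at least 2-fold lower in all 8 ways of scaling run, between −1.24 and −1.11 for CDK1 and between −1.21 and −1.05 for TOP2A. No other member passed 2-fold in any of them, and CDC25A, between −0.01 and 0.05, changed sign. With a 1.5-fold rule, 2 of 10 members were lower and 1, CCNB1, was higher. In the 7 lists, 5 of 75 genes were lower and 2 higher by that rule. Over all 14805 measured genes, 1514 were lower and 933 higher by it, and nothing is read from these counts. Of the lists' 3 lower genes 1 remained past 2-fold with deposited TPM and with FPKM, and without a minimum 1 list gene was higher. Over all genes, the numbers at least 2-fold lower and higher were 223 and 140 of 14976 with deposited TPM, and 118 and 48 of 13002 with FPKM. They were 244 and 89 of 12506 with a minimum of 200 counts, 89 and 30 of 9312 with 1000, and 2756 and 3503 of 24790 with none. Centring gave 301 lower of 13853, and protein-coding genes 201 higher of 12843. The causes were not tested; a stricter minimum tests fewer genes, and the TPM and FPKM settings change the measure, the added 1 and the genes tested at once. No paired analysis was possible because each group has 1 library, and none could be left out. The depth limits only counting error.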

Other observations

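Genes next to 2 of the members were read as further values. EXOSC9, an RNA exosome subunit that overlaps CCNA2 over 578 bases on chromosome 4, had 7142 counts with vehicle and 5122 with iMQT_020, and a log2 ratio of −0.30 (−0.36 to −0.25), the opposite sign to CCNA2. BBS7, a gene of the ciliary BBSome separated from the start of CCNA2 by 445 bases, had 3198 and 3195 counts and a log2 ratio of 0.17 (0.10 to 0.25). CENPB, a centromere protein gene 210 bases from the RefSeq span of CDC25B, had 4594 and 3377 counts and a log2 ratio of −0.27 (−0.33 to −0.20). That span begins at 3786951, while the canonical start of CDC25B, used for its promoter, lies further from CENPB, at 3796310.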
